A study of Mus musculus with 4 samples.

Results

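The Hox genes are the members of the 4 mammalian Hox clusters, and their values are described here in LSK-SLAM cells, the phenotypic haematopoietic stem cells (HSCs) of the mouse. Members were taken as every row whose symbol is Hoxa, Hoxb, Hoxc or Hoxd followed by a number alone. This gave 39 genes of the 23906 listed, with 11 in Hoxa, 10 in Hoxb, 9 in Hoxc and 9 in Hoxd. RNA was sequenced from 4 samples, and each group was 1 sample. The question the design poses is how BMP-activated and non-activated HSCs differ in the fetal liver (FL) and in adult bone marrow (BM).

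All 4 samples came from BRE-GFP transgenic mice kept on C57BL/6, in which GFP is driven by a BMP-responsive element and therefore marks cells with BMP signalling at the moment of isolation, not its history. Embryos came from heterozygous transgenic males and wild-type females, and the data shown are of a single transgenic line. FL GFP+ and FL GFP- were the sorted fractions of LSK-SLAM cells of the FL at embryonic day 14. BM GFP+ and BM GFP- were the same fractions of adult BM. The sort took lineage-negative, Sca1+, cKit+, CD150+, CD48- cells. Neither the age of the adults sequenced nor the number of animals pooled into a sequenced sample is given in the sources used here.

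Hox genes encode homeodomain transcription factors that give cells along the body axis their positional identity. Within a cluster they lie in the order in which they act, from anterior genes with low numbers to posterior genes with high numbers, and neighbours often share enhancers and chromatin domains. In blood, genes of the Hoxa and Hoxb clusters are active in stem and progenitor cells and are silenced as cells mature. *Hoxa9* is required for full HSC function, and sustained *Hoxa9* with its partner *Meis1* drives acute myeloid leukaemia. The proteins bind DNA together with TALE homeodomain cofactors of the Meis and Pbx families, and their genes are kept active by the *Kmt2a* (MLL) complex.

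In the RefSeq annotation of GRCm38.p6 the Hoxa cluster lies on chromosome 6, Hoxb at chr11:96194316-96368254, Hoxc at chr15:102921131-103036856 and Hoxd at chr2:74668225-74765142. The clusters are compact, and 10 Hox genes overlap another in 6 pairs. *Hoxa3* spans *Hoxa4*, *Hoxa5* and *Hoxa6*, *Hoxb3* spans *Hoxb4*, *Hoxd3* spans *Hoxd4*, and *Hoxd10* overlaps *Hoxd11*. How the authors divided reads between such genes is not stated, so the values of these pairs are uncertain to that extent. The clusters also carry miRNA genes. Mature miRNAs of 2 families are shown because *Mir196b*, between *Hoxa9* and *Hoxa10*, was the single cluster miRNA above 0, and because miR-196 targets include Hox mRNAs. Capitals mark the seed, bases 2 to 8, which is shared within each family.
mmu-miR-196b-5p (Hoxa cluster): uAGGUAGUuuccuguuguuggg
mmu-miR-196a-5p (Hoxb cluster, also encoded in Hoxc): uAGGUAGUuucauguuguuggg
mmu-miR-10a-5p (Hoxb cluster): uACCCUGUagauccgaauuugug
mmu-miR-10b-5p (Hoxd cluster): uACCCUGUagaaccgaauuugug

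RefSeq promoters, 300 bases around an annotated start, are shown for the run of neighbours *Hoxa6*, *Hoxa7*, *Hoxa9* and *Hoxa10*, because this run held the Hox genes of highest FPKM in all 4 samples beside a gene listed at 0 in both GFP+ samples. All lie on the minus strand of chromosome 6 and are printed 5′ to 3′. Capitals mark matches on either strand to GGGCGG (the GC box of Sp1-type factors), CCAAT (the box of NF-Y), TTTATG (the core read by caudal-type Cdx factors) or TATAAA (the TATA box). GC boxes in a run overlap each other.
Hoxa6 (chr6:52208623-52208922): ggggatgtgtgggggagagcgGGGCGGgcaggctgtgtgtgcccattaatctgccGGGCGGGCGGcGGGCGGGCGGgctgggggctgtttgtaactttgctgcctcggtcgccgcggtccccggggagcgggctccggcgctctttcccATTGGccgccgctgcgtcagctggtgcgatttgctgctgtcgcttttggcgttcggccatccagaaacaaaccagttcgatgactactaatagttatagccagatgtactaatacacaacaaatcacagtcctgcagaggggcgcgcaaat
Hoxa7 (chr6:52218524-52218823): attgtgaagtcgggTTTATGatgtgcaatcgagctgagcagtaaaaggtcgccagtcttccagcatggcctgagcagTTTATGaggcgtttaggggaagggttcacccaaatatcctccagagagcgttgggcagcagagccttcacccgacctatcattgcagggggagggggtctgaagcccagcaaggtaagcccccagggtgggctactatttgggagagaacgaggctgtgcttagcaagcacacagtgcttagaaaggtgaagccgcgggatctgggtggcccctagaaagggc
Hoxa9 (chr6:52227321-52227620): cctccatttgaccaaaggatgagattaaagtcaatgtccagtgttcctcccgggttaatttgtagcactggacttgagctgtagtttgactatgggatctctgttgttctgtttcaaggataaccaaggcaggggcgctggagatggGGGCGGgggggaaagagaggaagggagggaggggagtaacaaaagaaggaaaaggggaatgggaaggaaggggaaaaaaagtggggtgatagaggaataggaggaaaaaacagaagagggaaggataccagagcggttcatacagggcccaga
Hoxa10, upstream start (chr6:52240805-52241104): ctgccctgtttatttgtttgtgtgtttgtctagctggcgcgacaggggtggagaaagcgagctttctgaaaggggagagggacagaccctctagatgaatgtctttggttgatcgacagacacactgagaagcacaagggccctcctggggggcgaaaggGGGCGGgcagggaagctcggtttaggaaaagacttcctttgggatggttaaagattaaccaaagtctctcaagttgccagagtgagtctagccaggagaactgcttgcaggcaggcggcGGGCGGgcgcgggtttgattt
Hoxa10, downstream start (chr6:52234890-52235189): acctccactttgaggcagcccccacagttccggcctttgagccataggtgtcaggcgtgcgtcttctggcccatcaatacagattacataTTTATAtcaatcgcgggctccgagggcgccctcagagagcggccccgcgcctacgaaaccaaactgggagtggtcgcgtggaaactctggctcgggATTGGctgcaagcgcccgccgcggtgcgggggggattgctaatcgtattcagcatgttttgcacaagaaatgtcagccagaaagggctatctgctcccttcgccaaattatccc

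These promoters differ in their letters. That of *Hoxa6* held 26 CpG and 5 GC boxes, and that of *Hoxa7* held 9 CpG, no GC box and 2 copies of TTTATG. The *Hoxa9* window held 4 CpG and 1 GC box. Those of *Hoxa10* held 12 CpG with 2 GC boxes at the upstream start and 21 CpG with 1 CCAAT and 1 TATAAA at the downstream start. RefSeq gave 24 promoters for 22 of the 39 Hox genes, with a median of 14.5 CpG and a range of 4 to 45, against a median of 7 over all 32851 promoters. GGGCGG was in 10 of the 24 Hox promoters and in 35.7% of all promoters. CCAAT was in 15 and 37.4%, TTTATG in 5 and 11.9%, and TATAAA in 4 and 13.6%. A match is a description of the letters only.

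The values are FPKM, fragments scaled by transcript length and by sequencing depth, so levels can be set side by side between genes. Between 12372 and 17345 rows were above 0 in a sample, fewer in the GFP+ sample of each tissue. The fetal labels held, with summed values of 10 fetal-stage genes of 535 (GFP+) and 181.8 FPKM (GFP-) in the FL against 7.24 (GFP+) and 7.53 FPKM (GFP-) in the BM. *Igf2bp1* alone gave 425.6 FPKM in FL GFP+. Past 2-fold higher in FL were 7 of the 10 among GFP+ samples (16.8% of all rows) and 8 among GFP- samples (16.9%). None was past 2-fold higher in BM. GFP itself is not a row, so the fraction labels could not be checked. BM GFP+ stood apart from the other samples. The summed FPKM of 8 HSC markers (among them *Mecom*, *Hlf*, *Procr*, *Tek*, *Gata2*, *Ctnnal1* and *Fgd5*) was 678.7 (GFP+) and 578.4 (GFP-) in the FL, and 60.8 (GFP+) and 308.7 (GFP-) in the BM, and *Procr*, *Tek* and *Ctnnal1* were listed at 0 in BM GFP+. *Cd48*, which the sort selects against, was at an FPKM of 51.4, 17.4, 266.8 and 126.5 in the same order. Each result that rests on BM GFP+ is therefore set beside the FL pair and the GFP- pair, which do not use it. Neither pair is free of marker differences. The GFP- samples also differ in HSC markers and *Cd48*, and their granulocyte genes sum to 180.6 (FL) and 16244.7 FPKM (BM). The hepatocyte genes of the FL fractions sum to 327 (GFP+) and 23.7 FPKM (GFP-).

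Hox transcripts were detected in all 4 samples, mainly from the Hoxa cluster. Of the 39 genes, 27 were above 0 in at least 1 sample and 12 were listed at 0 in all 4, or 30.8% of the Hox genes against 21.1% of all rows. These 12 were *Hoxa11*, *Hoxa13*, *Hoxc5*, *Hoxc11*, *Hoxc13*, *Hoxd1*, *Hoxd4*, *Hoxd8*, *Hoxd9*, *Hoxd10*, *Hoxd12* and *Hoxd13*. All are genes of positions 8 or higher except *Hoxc5*, *Hoxd1* and *Hoxd4*. Above 0 in all 4 samples were 7 Hox genes, *Hoxa3*, *Hoxa5*, *Hoxa7*, *Hoxa9*, *Hoxa10*, *Hoxb2* and *Hoxb3*, or 17.9% of the 39 against 45.2% of all rows.

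The Hoxa cluster had 9 of 11 genes above 0 in at least 1 sample and 8 that reached an FPKM of 1. In Hoxb all 10 genes were above 0 in at least 1 sample and 5 reached an FPKM of 1. Hoxc had 6 of 9 and Hoxd 2 of 9 above 0, and none of these reached an FPKM of 1. Of all 23906 rows, 18859 were above 0 in at least 1 sample. The map of the clusters shows the highest values in Hoxa, lower ones in Hoxb, and Hoxd nearly empty.

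**Figure D1:**
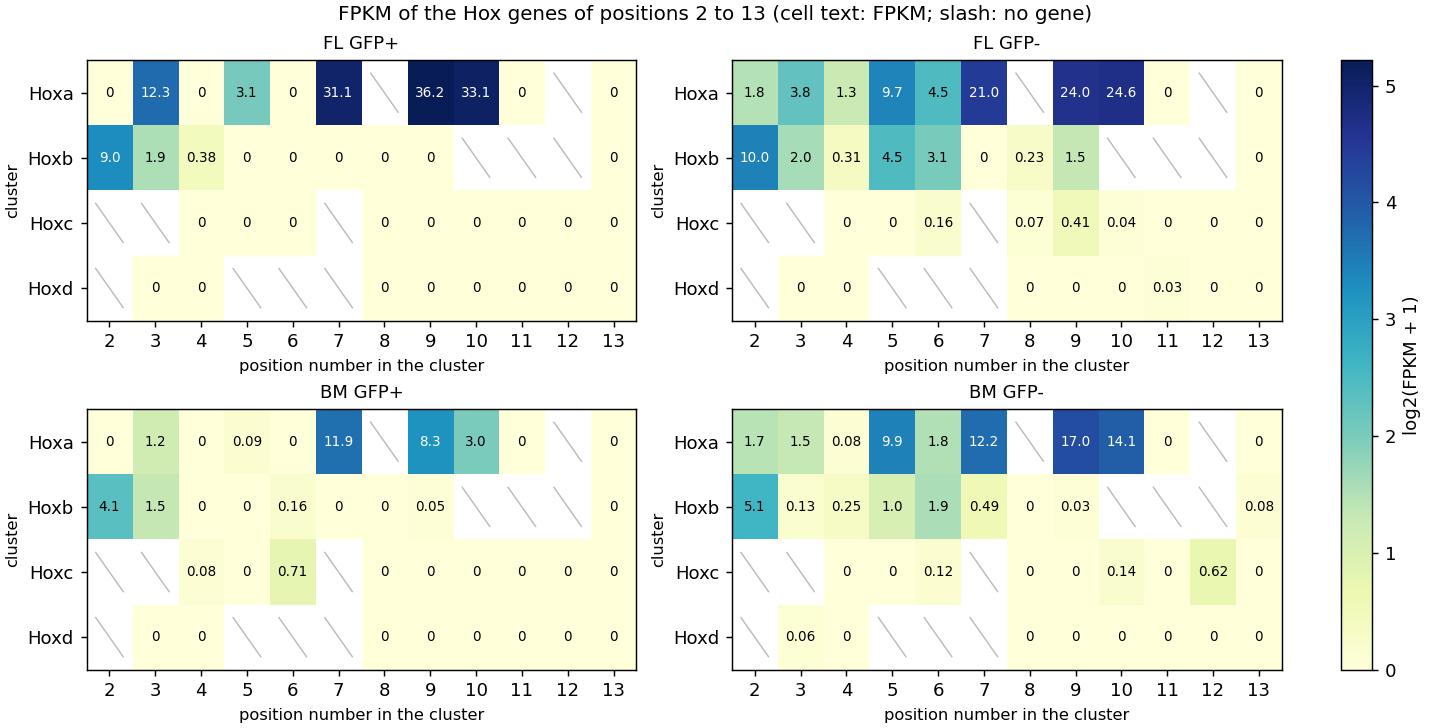
FPKM of the Hox genes of positions 2 to 13 in each of the 4 samples, with clusters as rows and position numbers as columns, colour on the log2(FPKM + 1) scale and the FPKM printed in each cell (a slash marks positions with no gene). The darkest cells are Hoxa7, Hoxa9 and Hoxa10 in both FL samples, and positions 4 to 6 of Hoxa and Hoxb are filled in the GFP- samples more than in the GFP+ samples.

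Within each tissue the GFP- sample had more Hox genes above 0. FL GFP+ had 9 of 39 above 0 (23.1%, against 51.8% of all rows) and FL GFP- had 21 (53.8%, against 65.1%). BM GFP+ had 11 (28.2%, against 56.4%) and BM GFP- had 20 (51.3%, against 72.6%). At 1 FPKM or more, the FL had 7 Hox genes in GFP+ (41% of all rows) and 13 in GFP- (48.2%), and the BM had 6 in GFP+ (45.8%) and 10 in GFP- (48.3%). Of the 61 values above 0, 25 were under an FPKM of 1 and 12 under 0.1. One fragment on a transcript of 2000 bases was worth roughly 0.0375 to 0.0525 FPKM, as judged from the lowest values of single-transcript genes, so the smallest Hox values rest on about 1 to a few fragments. A value of 0 is thus listed at 0 and is not shown to be absence.

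*Hoxa9*, *Hoxa10* and *Hoxa7* were the 3 highest Hox genes in every sample but BM GFP+, where *Hoxb2* exceeded *Hoxa10*. *Hoxa9* stood at 36.2 (GFP+) and 24.0 FPKM (GFP-) in the FL, and at 8.31 (GFP+) and 17.0 FPKM (GFP-) in the BM. *Hoxa10*, which acts in progenitor expansion and megakaryocyte and myeloid differentiation, had 33.1, 24.6, 3.03 and 14.1 FPKM in the same order, FL GFP+ first and BM GFP- last. *Hoxa7*, a target of MLL fusion proteins in leukaemia, had 31.1, 21.0, 11.9 and 12.2 FPKM. As FPKM all 3 were highest in the FL, and both FL samples exceeded both BM samples. In bulk samples fewer expressing cells and less RNA per cell cannot be told apart. Within the FL the FPKM of each in GFP+ was 1.35-fold (*Hoxa10*) to 1.51-fold (*Hoxa9*) that in GFP-. Within the BM, *Hoxa10* was 4.65-fold and *Hoxa9* 2.04-fold lower in GFP+ as FPKM, while *Hoxa7* was 1.03-fold lower. Relative to the HSC markers *Hoxa10* was within 2-fold there, and *Hoxa9* and *Hoxa7* were past 2-fold higher in GFP+. *Hoxa9* exceeded 86.5% of all rows in FL GFP+ and 69.9% in BM GFP+.

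**Figure D2:**
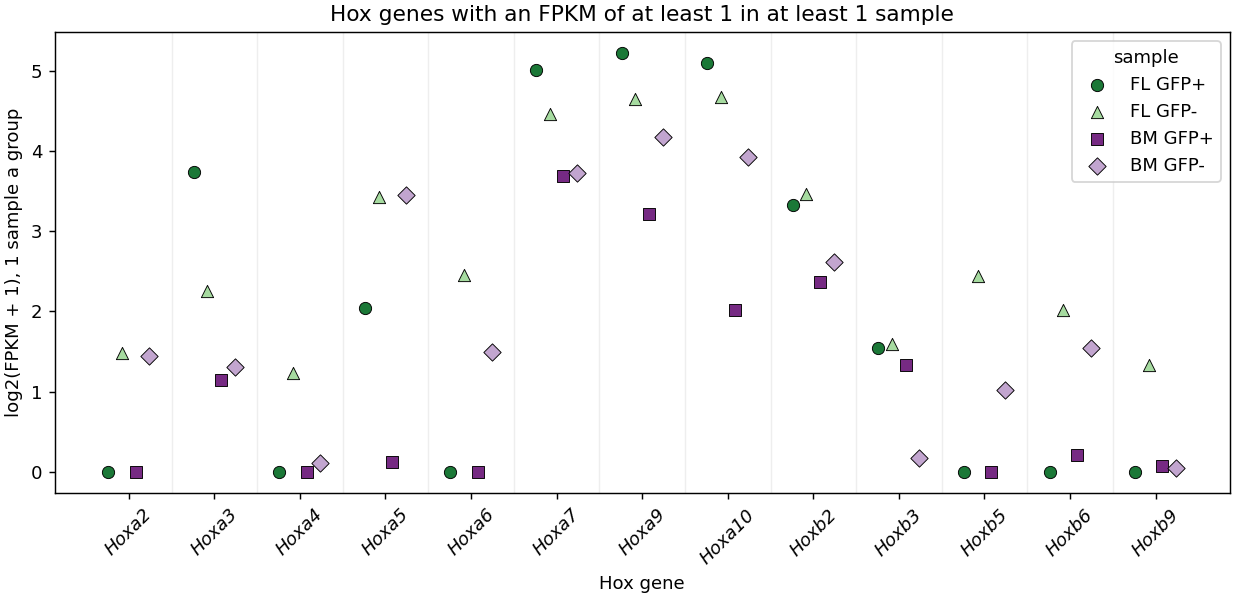
Level of the 13 Hox genes that reached 1 FPKM in any sample, on the log2(FPKM + 1) scale, with 1 point for each sample and no error bars because each group was 1 sample. Hoxa7 and Hoxa9 are among the highest in all 4 samples and Hoxa10 in all but BM GFP+, whereas Hoxa2, Hoxa6 and Hoxb5 lie at 0 in both GFP+ samples and above 1 in both GFP- samples.

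Anterior genes were led by *Hoxb2*, *Hoxa3* and *Hoxb3*. *Hoxb2*, a hindbrain patterning gene, stood at 8.99 (GFP+) and 9.99 FPKM (GFP-) in the FL, and at 4.15 (GFP+) and 5.11 FPKM (GFP-) in the BM. As FPKM its fractions were within 1.23-fold of each other in both tissues, and both FL samples exceeded both BM samples. Relative to the HSC markers *Hoxb2* was past 2-fold higher in BM GFP+ than in BM GFP- and than in FL GFP+. *Hoxa3*, needed for the thymus and parathyroid, had 12.3, 3.79, 1.21 and 1.48 FPKM in this order of samples. In the FL its GFP+ value was 3.25-fold the GFP- value, and in the BM it was 1.23-fold lower. *Hoxb3*, which acts with *Hoxb4* in blood progenitors, had 1.92, 2.03, 1.53 and 0.126 FPKM. The low sample was BM GFP-, 12.1-fold under BM GFP+ and 16.1-fold under FL GFP-.

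*Hoxa2*, the selector gene of the second branchial arch, was listed at 0 in both GFP+ samples, while its GFP- values were 1.80 FPKM (FL) and 1.72 FPKM (BM). *Hoxb1* was above 0 in FL GFP- alone, at 0.0434, near the worth of a single fragment.

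Among central genes, *Hoxa5*, *Hoxa6*, *Hoxb5* and *Hoxb6* had their higher values in GFP- cells. *Hoxa5*, which takes part in lung development and in the balance of erythroid and myeloid cells, stood at 3.12 (GFP+) and 9.71 FPKM (GFP-) in the FL, and at 0.0905 (GFP+) and 9.91 FPKM (GFP-) in the BM. The GFP- value was 3.12-fold higher in the FL and 109.6-fold higher in the BM, the latter against a value of about 1 or 2 fragments. Its GFP- values were within 1.02-fold of each other across tissues. *Hoxa6* was listed at 0 in both GFP+ samples, with GFP- values of 4.50 FPKM (FL) and 1.82 FPKM (BM). *Hoxb5*, used as a reporter of long-term HSCs, was also listed at 0 in both GFP+ samples, with GFP- values of 4.46 FPKM (FL) and 1.03 FPKM (BM). *Hoxb6*, expressed in early erythroid and myeloid progenitors, stood at 0 (GFP+) and 3.05 FPKM (GFP-) in the FL, and at 0.162 (GFP+) and 1.93 FPKM (GFP-) in the BM. In each of these 4 genes both GFP- values exceeded both GFP+ values.

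*Hoxa4* had 0 (GFP+) and 1.34 FPKM (GFP-) in the FL and 0 (GFP+) and 0.0811 FPKM (GFP-) in the BM, so that its value in BM GFP- was close to a single fragment. *Hoxb4*, whose forced expression expands HSCs, had 0.377, 0.314, 0 and 0.246 FPKM in this order. It was under 1 in every sample and listed at 0 in BM GFP+. *Hoxb9* had 0, 1.53, 0.0524 and 0.0343 FPKM, and was thus above 1 in FL GFP- alone. *Hoxb7*, *Hoxb8* and *Hoxb13* were each above 0 in 1 sample, between 0.0766 and 0.495.

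Hoxc and Hoxd genes were scarce. *Hoxc6*, with the most samples above 0 in these clusters, stood at 0 (GFP+) and 0.163 FPKM (GFP-) in the FL, and at 0.707 (GFP+) and 0.117 FPKM (GFP-) in the BM. *Hoxc12* had 0.617 in BM GFP- alone and *Hoxc9* 0.408 in FL GFP- alone. *Hoxc10* had 0.0419 in FL GFP- and 0.140 in BM GFP-. The remaining values above 0 were those of *Hoxc4*, *Hoxc8*, *Hoxd3* and *Hoxd11*, each in 1 sample, between 0.0335 and 0.0794. FL GFP+ listed all 18 Hoxc and Hoxd genes at 0.

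Summed over the 39 genes, the FPKM came to 127.2 (GFP+) and 113.1 (GFP-) in the FL, and to 31.2 (GFP+) and 68.3 (GFP-) in the BM. The fractions of the FL were within 1.12-fold, whereas BM GFP+ was 2.19-fold under BM GFP-. Between tissues the sum was 4.08-fold higher in FL than in BM among GFP+ samples and 1.66-fold among GFP- samples. Relative to the summed HSC markers the direction turned in all 4 comparisons. The log2 ratio was 1.21 in place of -1.13 for BM GFP+ over BM GFP-, and -1.45 in place of 2.03 for FL GFP+ over BM GFP+. It was -0.18 in place of 0.73 for FL GFP- over BM GFP-, and -0.061 in place of 0.17 between the FL fractions, where rescaling to equal FPKM totals or upper quartiles also turned it, to -0.087 and -0.056. Hoxa gave 91.1%, 80.2%, 78.6% and 85.4% of the sum in FL GFP+, FL GFP-, BM GFP+ and BM GFP-, and Hoxb gave 8.87%, 19.1%, 18.9% and 13.2%. *Hoxa7*, *Hoxa9* and *Hoxa10* together gave 79.0%, 61.5%, 74.4% and 63.4%. Without these 3 genes the sum was 26.7 (GFP+) and 43.5 (GFP-) in the FL, and 7.97 (GFP+) and 25.0 (GFP-) in the BM, lower in GFP+ in both tissues. The similar totals of the FL fractions thus held, in GFP+, higher values of 3 genes and a lower sum of the others.

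**Figure D3:**
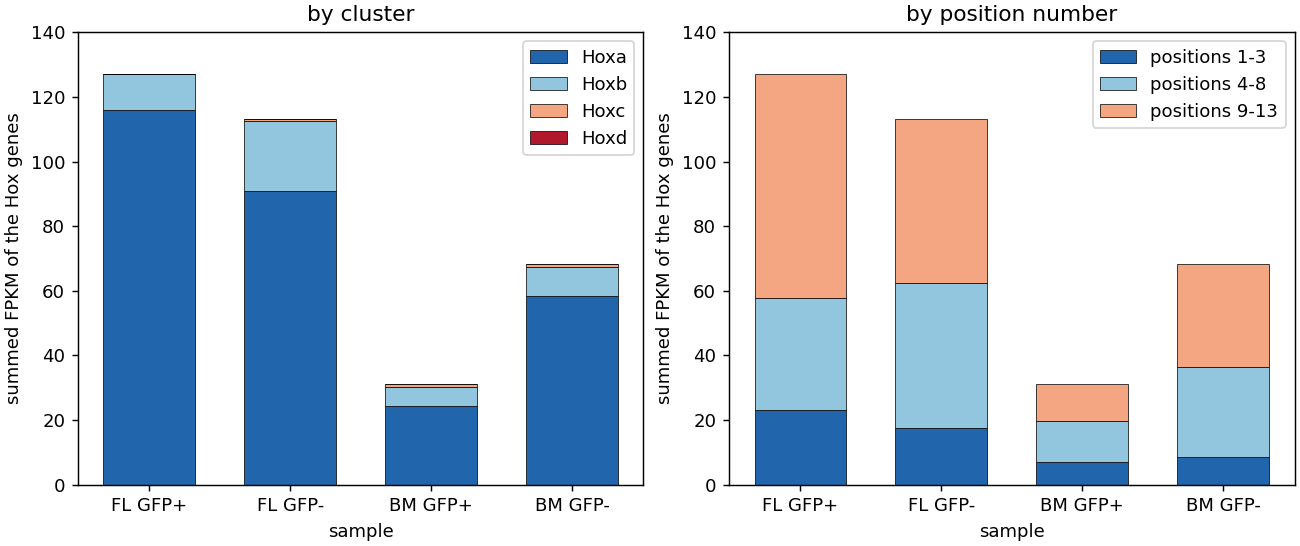
Summed FPKM of the 39 Hox genes in each sample, divided by cluster (left) and by position number (right), with bars starting at 0. The totals are 127.2, 113.1, 31.2 and 68.3, Hoxa makes up the greater part of each bar, and the 2 FL bars differ in their parts more than in height.

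The share of the sum from posterior genes (positions 9 to 13) was 54.5% (GFP+) and 44.7% (GFP-) in the FL, and 36.6% (GFP+) and 46.8% (GFP-) in the BM. Central genes (positions 4 to 8) gave 27.2%, 39.7%, 41.4% and 40.8% in this order, and anterior genes (positions 1 to 3) gave 18.3%, 15.6%, 22.1% and 12.4%. *Hoxa7* dominates the central share. Among Hoxb genes of positions 4 to 8 the summed FPKM was 0.377 (GFP+) and 8.06 (GFP-) in the FL, and 0.162 (GFP+) and 3.70 (GFP-) in the BM. The GFP+ sum was thus 21.4-fold lower in the FL and 22.9-fold lower in the BM. Anterior Hoxb genes did not share that gap, with sums of 10.9, 12.1, 5.68 and 5.24. By position, the sum at position 5 was 3.12, 14.2, 0.0905 and 10.9, and at position 6 it was 0, 7.72, 0.869 and 3.86, while at position 7 it was 31.1, 21.0, 11.9 and 12.7. In the FL the sum at position 7 was that of *Hoxa7* alone, since *Hoxb7* was listed at 0 in both FL samples. Over positions 5 to 7 the change of direction between the FL fractions was therefore seen in Hoxa and not in Hoxb.

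More Hox genes were past 2-fold towards GFP- than towards GFP+ in both tissues. In the FL, 14 of 39 (35.9%, against 25.8% of all rows) had an FPKM more than 2 times higher in GFP- than in GFP+. The reverse held for 2, *Hoxa3* among them (11.1% of all rows). Of the 22 Hox genes above 0 in either FL sample these were 63.6% towards GFP- (38.4% of such rows) and 9.09% towards GFP+ (16.5%), shares that depend on the values that let a gene enter. Of those 14, all but *Hoxa5* were listed at 0 in FL GFP+. In the BM, 14 of 39 (35.9%, against 27.3% of all rows) were higher in GFP-, of which 10 were listed at 0 in BM GFP+. Higher in GFP+ were 3, *Hoxb3*, *Hoxc4* and *Hoxc6* (13.4% of all rows), or 8 relative to the HSC markers. Of the 21 above 0 in either BM sample these were 66.7% towards GFP- (36.7% of such rows) and 14.3% towards GFP+ (18%). These shares have the same dependence. With values near 0 included, all rows also leaned towards GFP-, and the number of rows above 0 was lower in GFP+. Part of the counts rests on values under 1. Among genes that reached 1 FPKM in the higher sample, 7 Hox genes were higher in FL GFP- (26.8% of the rows at that level) and 7 in BM GFP- (19.6%), against 1 in FL GFP+ (17.9%) and 1 in BM GFP+ (21.1%). At that level the rows as a whole leaned slightly to GFP+ in the BM. Over the 39 genes and over all rows, the median difference in log2(FPKM + 1) was 0 in both tissues, since many values were 0 in both samples.

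Higher in GFP- in both tissues were 7 genes, *Hoxa2*, *Hoxa4*, *Hoxa5*, *Hoxa6*, *Hoxb5*, *Hoxb6* and *Hoxc10*, or 17.9% of the 39 against 10.3% of all rows. They were 43.8% of the 16 Hox genes above 0 in at least 1 fraction of each tissue, against 16.4% of such rows. *Hoxa2*, *Hoxa4*, *Hoxa6*, *Hoxb5* and *Hoxc10* entered through their GFP- values alone. This share, and those at 1 FPKM, thus depend on the values that let a gene enter. No Hox gene was higher in GFP+ in both tissues (1.98% of all rows and 3.15% of those above 0), and *Hoxc6* was past 2-fold in opposite directions (13.6% of those above 0). Where the higher sample reached 1 FPKM in both tissues 5 remained, *Hoxa2*, *Hoxa5*, *Hoxa6*, *Hoxb5* and *Hoxb6* (6.48% of rows at that level), with none higher in GFP+ in both (3.45%) and none in opposite directions (9.54%). Listed at 0 in both GFP+ samples and above 0 in both GFP- samples were 5 genes, *Hoxa2*, *Hoxa4*, *Hoxa6*, *Hoxb5* and *Hoxc10*, or 12.8% of the 39 against 5.76% of all rows, and none showed the reverse. The genes higher in GFP- in both tissues included *Hoxa4*, *Hoxa5* and *Hoxa6*, which all lie within the RefSeq span of *Hoxa3*, a gene that was higher in GFP+ in the FL. The plot of the GFP contrast in both tissues puts *Hoxa2*, *Hoxa5*, *Hoxa6*, *Hoxb5* and *Hoxb6* in the lower left, apart from *Hoxa7*, *Hoxa9* and *Hoxa10*.

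**Figure D4:**
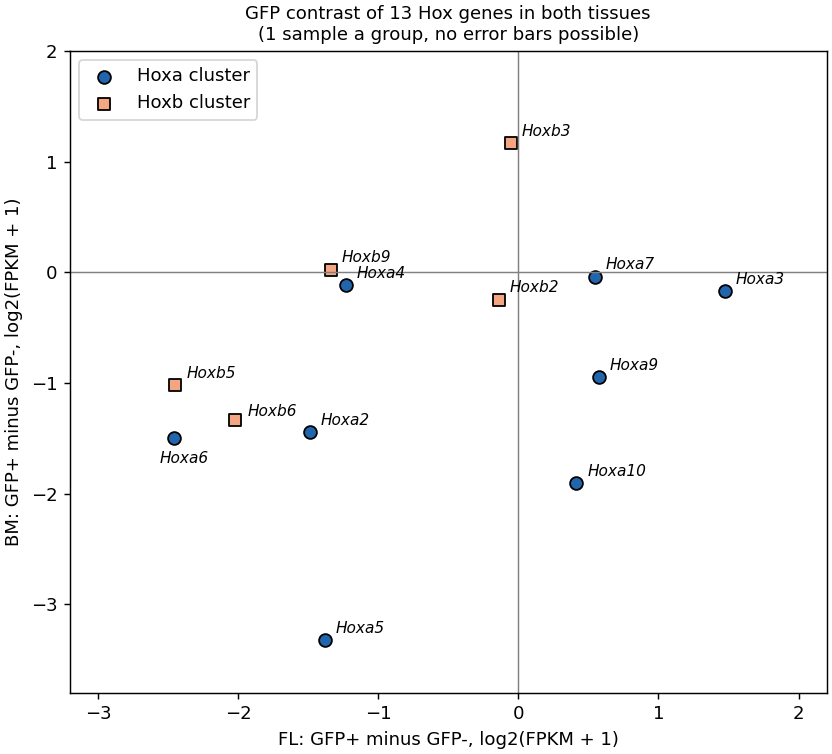
GFP+ minus GFP- difference in log2(FPKM + 1) in the FL (horizontal) against that in the BM (vertical) for the 13 Hox genes that reached 1 FPKM in any sample, by cluster, with no error bars because each group was 1 sample. Hoxa2, Hoxa5, Hoxa6, Hoxb5 and Hoxb6 are below -1 on both axes, while Hoxa3, Hoxa7, Hoxa9 and Hoxa10 are above 0 in the FL and below 0 in the BM, where all 4 turn if ratios are taken relative to the HSC markers.

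The only replication of the GFP contrast is across the tissues, so it was tested with limma on the 11707 genes that reached 1 FPKM in 2 or more samples, with tissue as a second term and 1 residual degree of freedom. Of the 39 Hox genes 11 entered the test, and none passed an adjusted p of 0.05 (limma called 5 genes higher in GFP+, 0.0427% of those tested, and 8 lower, 0.0683%). At an unadjusted limma p under 0.05 there were 5, *Hoxa2*, *Hoxa5*, *Hoxa6*, *Hoxb5* and *Hoxb6*, against 6.25% of all genes tested. The largest of these differences was that of *Hoxa5*, -2.35 on the log2(FPKM + 1) scale (SE 0.95, limma adjusted p = 0.780), and the smallest that of *Hoxa2*, -1.46 (SE 0.62, limma adjusted p = 0.780). *Hoxa6* differed by -1.98 (SE 0.69, limma adjusted p = 0.757). *Hoxb5* and *Hoxb6* differed by -1.74 (SE 0.69) and -1.68 (SE 0.67), both with a limma adjusted p of 0.780. These genes thus did not pass the test at this sample number. A gene enters the test through the samples in which it is above 1, so the 11 are not a fair sample of the 39.

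Between tissues, Hox genes leaned as FPKM to the FL in both fractions. More genes did so in the GFP- pair, while the Hox sum differed more in the GFP+ pair. Relative to the HSC markers, 3 genes leaned to the FL and 8 to the BM among GFP+ samples. Among GFP+ samples 8 of 39 (20.5%, against 16.8% of all rows) were more than 2-fold higher in FL, among them *Hoxa3*, *Hoxa5*, *Hoxa7*, *Hoxa9*, *Hoxa10*, *Hoxb2* and *Hoxb4*. In BM 4 were higher, *Hoxb6*, *Hoxb9*, *Hoxc4* and *Hoxc6* (10.3%, against 22.3% of all rows), each listed at 0 in FL GFP+ and under 1 in BM GFP+. Of the 13 Hox genes above 0 in either GFP+ sample these were 61.5% towards FL (27% of such rows) and 30.8% towards BM (36%). *Hoxa10* was 10.9-fold, *Hoxa3* 10.2-fold, *Hoxa9* 4.36-fold and *Hoxa7* 2.63-fold higher in FL GFP+ than in BM GFP+. Among GFP- samples, which do not use BM GFP+, 11 of 39 (28.2%, against 16.9% of all rows) were higher in FL, including *Hoxa3*, *Hoxa4*, *Hoxa6*, *Hoxb3*, *Hoxb5* and *Hoxb9*. In BM 5 were higher (12.8%, against 22.5% of all rows), *Hoxb7*, *Hoxb13*, *Hoxc10*, *Hoxc12* and *Hoxd3*, all under an FPKM of 1. Of the 25 above 0 in either GFP- sample these were 44% towards FL (21.9% of such rows) and 20% towards BM (29.2%). Such shares depend on the values that let a gene enter, here as within tissues. Where the higher sample reached 1 FPKM, 6 were higher in FL GFP+ than in BM GFP+ (25.1% of rows at that level) and none the reverse (33.6%), and 6 were higher in FL GFP- than in BM GFP- (19.3%) and none the reverse (18.6%). Between the GFP- samples *Hoxa10* was 1.74-fold, *Hoxa7* 1.72-fold and *Hoxa9* 1.41-fold higher in FL, none past 2-fold. Larger folds towards FL were taken against low BM values. In the GFP- pair these were *Hoxb9* (44.6-fold, against 0.0343 FPKM), *Hoxa4* (16.6-fold, against 0.0811) and *Hoxb3* (16.1-fold, against 0.126). In the GFP+ pair it was *Hoxa5* (34.4-fold, against 0.0905).

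*Hoxa3* alone was more than 2-fold higher in FL in both fractions (5.28% of all rows), by 10.2-fold and 2.56-fold, though in neither fraction relative to the HSC markers. It was 1 of 11 Hox genes above 0 in both pairs (9.09%, against 8.78% of such rows). No Hox gene was more than 2-fold higher in BM in both (8.44% and 14%). *Hoxb9* was past 2-fold in opposite directions (9.9%). At 1 FPKM or more in the higher samples, *Hoxa3* was still the single gene higher in FL (7.7% of rows), with none higher in BM (11.9%) and none in opposite directions (5.04%). In the limma fit of the tissue effect none of the 11 Hox genes passed an adjusted p of 0.05 (34 genes higher in FL, 0.29% of those tested, and 254 lower, 2.17%), and 1 had an unadjusted p under 0.05 (17.2% of all). This was *Hoxa10*, 1.92 higher in FL on the log2(FPKM + 1) scale (SE 0.79, limma adjusted p = 0.261). *Hoxa3* was 1.77 higher (SE 0.92, limma adjusted p = 0.373), *Hoxa9* 1.24 (SE 0.65, limma adjusted p = 0.381) and *Hoxa7* 1.03 (SE 0.63, limma adjusted p = 0.445).

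Of the cofactor genes, *Meis1* stood at 137.4 (GFP+) and 94.3 FPKM (GFP-) in the FL, and at 21.5 (GFP+) and 67.0 FPKM (GFP-) in the BM, the same order of samples as *Hoxa9* and *Hoxa10*. *Pbx4* had 19.8, 4.10, 0.435 and 8.34 FPKM, highest in FL GFP+ and lowest in BM GFP+. Over the 9 TALE genes, 3 were past 2-fold higher in GFP+ (11.1% of all rows) and 2 in GFP- (25.8%) in the FL. In the BM 2 were higher in GFP+ (13.4% of all rows) and 5 in GFP- (27.3%). Of 10 chromatin and Cdx regulators, 3 were past 2-fold higher in FL GFP+ (*Men1*, *Psip1* and *Dot1l*, which act with *Kmt2a* at Hox loci) and none in FL GFP-. The BM had 1 higher in GFP+ and 4 in GFP-, with *Cdx1* and *Cdx2* among the 4. The same shares of all rows apply to these counts. Counts in lists this short are descriptions only, and those of the BM rest on BM GFP+. *Kmt2a* itself had an FPKM of 5.58, 3.79, 2.13 and 1.77, and *Mllt3* 37.2, 32.1, 5.14 and 11.4. *Cdx1* and *Cdx2* were above 0 in BM GFP- alone, at 0.737 and 0.0666, and *Cdx4* was listed at 0 throughout. No gene of these lists passed limma's adjusted p of 0.05 for either effect.

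Transcripts within or beside the clusters were described by 28 symbols, of which 21 are rows. *Mir196b* had 88.6 (GFP+) and 139.5 FPKM (GFP-) in the FL and 81.7 FPKM in BM GFP-, and was listed at 0 in BM GFP+, where its neighbour *Hoxa10* was lowest. Its annotated hairpin is 85 bases long, so its FPKM is not comparable with that of a full mRNA and may count reads of longer cluster transcripts. *Mir10a*, *Mir10b*, *Mir196a-1*, *Mir196a-2* and *Mir615* were listed at 0 in all 4 samples. So were *Hottip*, *Evx1*, *Evx2*, *Hoxa11os* and *Hoxd3os1*, and *Hotair* was above 0 in BM GFP- alone, at 0.332. Genes beyond the cluster ends varied in pattern. *Cbx5* had an FPKM of 49.4, 24.8, 8.91 and 8.95 in FL GFP+, FL GFP-, BM GFP+ and BM GFP-, and *Lnp* had 2.68, 1.88, 1.26 and 1.26. Both were thus higher in both FL samples. *Skap2*, beside the Hoxa cluster, had an FPKM of 61.0, 78.9, 109.1 and 112.4, higher in both BM samples, and *Mtx2*, beside the Hoxd cluster, had 53.1, 65.3, 53.2 and 60.2.

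The order of the Hox sum across samples was also that of the HSC markers. As a percentage of the summed HSC marker FPKM, the Hox sum was 18.7% (GFP+) and 19.6% (GFP-) in the FL, and 51.3% (GFP+) and 22.1% (GFP-) in the BM. The sums of the blood lineage lists, here called mature-cell lists, ran the other way between the BM fractions, though not every gene did. Past 2-fold higher in BM GFP+ (13.4% of all rows) were 5 of 8 granulocyte, 4 of 6 B cell and 5 of 5 T cell genes. So were 4 of 6 erythroid and 4 of 5 macrophage genes, and none of these lists had a gene past 2-fold higher in BM GFP-. *Ctsg* was slightly lower in BM GFP+ (1761.8 against 1868.4 FPKM). The summed FPKM of 8 granulocyte genes was 365.7, 180.6, 60711.5 and 16244.7 in FL GFP+, FL GFP-, BM GFP+ and BM GFP-. The 6 B cell genes gave 96.3, 43.5, 3060 and 857, the 5 T cell genes 4.04, 5.39, 132.7 and 31.5, and the 6 erythroid genes 973, 894, 20306 and 2832. The 5 macrophage genes gave 22.1, 30.9, 219 and 85.9. Every gene of these lists was above 0 in both BM samples. Their part in the lower Hox values of BM GFP+ was not tested. Between the FL fractions the 5 hepatocyte genes gave 327 in GFP+ and 23.7 in GFP-, with all 5 above 0 in both, and their part in the FL differences was not tested. Stroma genes gave 0.527, 5.94, 77.6 and 13.1, and endothelial genes 112.1, 82.2, 42.7 and 59.2. The comparisons without BM GFP+ were the FL pair and the GFP- pair. In the FL pair 14 of 39 Hox genes (35.9%, against 25.8% of all rows) were higher in GFP-, 13 of them listed at 0 in GFP+, and 2 in GFP+. In the GFP- pair 11 (28.2%, against 16.9%) were higher in FL, 5 of them listed at 0 in the BM, and 5 in BM. Where the higher sample reached 1 FPKM, 7 were higher in FL GFP- than in FL GFP+ (26.8% of rows at that level). At that level 6 were higher in FL GFP- than in BM GFP- (19.3%). The GFP- pair also differed in the mature-cell lists, whose part there was not tested.

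**Figure D5:**
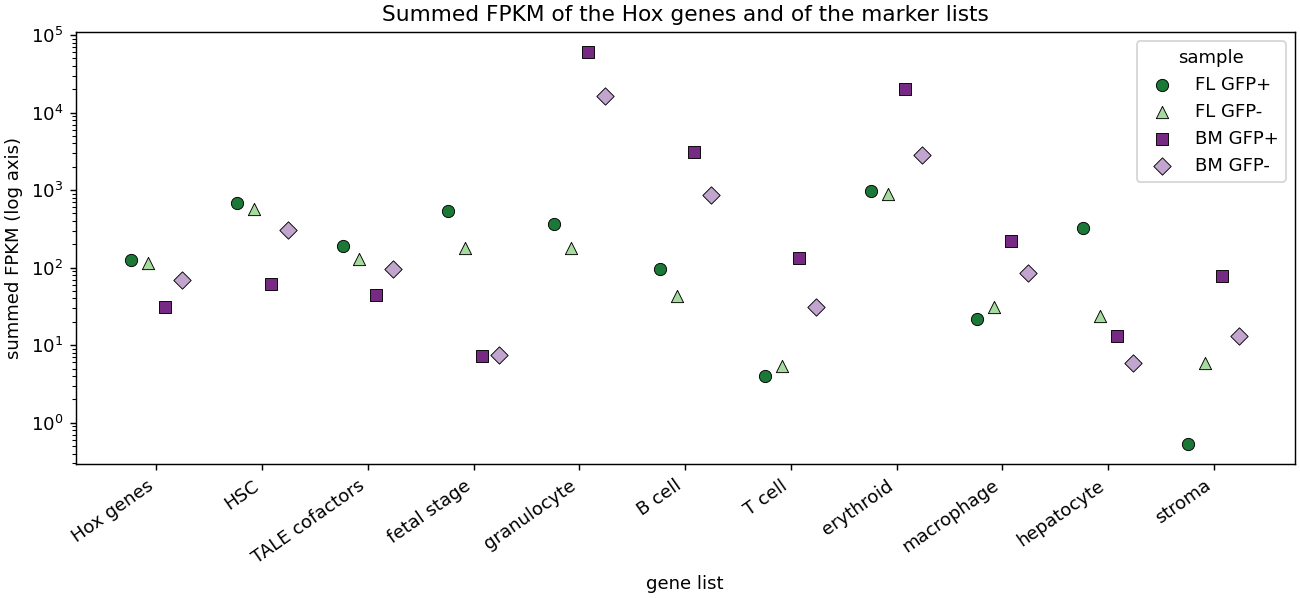
Summed FPKM (log axis) of the 39 Hox genes, of the TALE cofactors and of 9 marker lists, with 1 point for each sample and no error bars because each group was 1 sample. As FPKM, the Hox genes, HSC markers and TALE cofactors have their lowest sum in BM GFP+, while the granulocyte, B cell, T cell, erythroid and macrophage lists have their highest sum there.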

How the data were processed

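LSK-SLAM cells of BRE-GFP mice were sequenced in 4 samples, 1 per group, so no value has a replicate error. The authors prepared RNA with the mirVana kit and SMARTer libraries, aligned reads with Bowtie and TopHat, and computed FPKM with Cufflinks 2.2.1, corrected for fragment bias and multiple mapping and normalized across samples with Cuffnorm. The deposited files hold these FPKM for 23906 symbols, without read counts or errors, so the fragments behind a single value are not known. The study states the reads mapped per sample, which were not used here. The methods name NCBI37/mm9 and the submitters' processing notes mm10. The files hold no coordinates. Positions and sequences are from RefSeq (GRCm38.p6), matched by symbol for all 39 genes. There were 0 unmapped columns. Values of some single genes are not reported here.

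Groups follow the deposited labels. With 1 sample a group, genes were called past 2-fold with no test. The study required that threshold in both tissues for GFP, and it was applied here also within each tissue and between tissues. limma 3.58.1 (R 4.3.3) was fitted to log2(FPKM + 1) with tissue and GFP as terms, a trended prior and Benjamini-Hochberg adjustment. It was tested on simulated data for the GFP effect. At the median residual SD of the real fit (0.44), it recovered 4.5% of 200 changed genes at a log2 change of 1 and 100% at 3. The changed genes were drawn from levels above those of most Hox genes. Every simulated gene had the same SD, so recovery of large changes was not shown for the Hox genes. A lack of calls is thus uninformative for small changes and does not exclude large ones. A fold change on the log2(FPKM + 1) scale understates the change of low genes. Other steps used Python 3.11.15. Genes named with every value reached 1 FPKM in any sample, or were past 2-fold alike in both tissues or fractions. Some were also named for being at 0 or near the worth of a fragment, after their values were seen. Members and lists were chosen with earlier results of these data known. Alternatives were thresholds of 1.5-fold and 4-fold, pseudocounts of 1 and 0.1, an FPKM minimum, 2 rescalings and limma settings. Division by the HSC marker sum and leaving out 3 genes were chosen after seeing the data.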

Additional observations from a re-analysis of the deposited data

Results flagged for a closer look

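As deposited, the GFP contrast pointed in opposite directions in the FL and the BM for 7 Hox genes and for the Hox sum. Each value is the GFP+ minus GFP- difference in log2(FPKM + 1) in the FL less that in the BM. With 1 sample a group none of these differences between tissues was tested.

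*Hoxa10* was flagged at 2.32 (0.41 in the FL and -1.91 in the BM), *Hoxa3* at 1.64 (1.47 and -0.17), *Hoxa9* at 1.53 (0.57 and -0.95) and *Hoxa7* at 0.58 (0.55 and -0.04). All 4 were higher in GFP+ in the FL and, as FPKM, lower in GFP+ in the BM, a direction that turned relative to the HSC markers. Their BM values rest on BM GFP+, the sample with the lowest HSC marker sum, whose part was not tested.

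The reverse held for *Hoxb9* at -1.36 (-1.34 in the FL and 0.02 in the BM), *Hoxb3* at -1.22 (-0.05 and 1.17) and *Hoxc6* at -0.83 (-0.22 and 0.61). The contrast of *Hoxb9* in the BM lies between values near the worth of a single fragment, and *Hoxc6* was under an FPKM of 1 in every sample.

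For the summed Hox FPKM the log2 ratio of GFP+ over GFP- was 0.17 (FL) and -1.13 (BM), a difference of 1.30. With samples rescaled to equal FPKM totals or upper quartiles both ratios were negative, with FL values of -0.087 and -0.056 and BM values of -1.59 and -1.23.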

How the results depend on the processing

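No paired analysis was possible because each group was 1 sample and the labels carry no replicate numbers, so no replicate block could be fitted. Pairing by tissue was in the limma fit, as its tissue term. Without that term limma called 4 genes for GFP in place of 13, none of them a Hox gene. Leaving out a replicate could not be done with 1 sample a group. With no replicate spread, a count or value was taken as moved when it changed by more than 1.5-fold and as reversed when its sign changed. Of the alternative counts past 2-fold or above 0, 47 kept to that bound and 25 moved. Of the alternative log2 ratios of the Hox sum, 8 kept to it, 1 moved and 7 reversed. Of those for differences of single genes, 135 kept to it, 19 moved and 2 reversed.

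The counts past 2-fold depended most on low values. Towards FL GFP+ the count went from 2 to 1 at 4-fold, with an FPKM of at least 1, and with a pseudocount of 1 or 0.1. Towards FL GFP- it went from 14 to 7 with an FPKM of at least 1 or a pseudocount of 1. Towards BM GFP+ it went from 3 to 1 under the same settings. Towards BM GFP- it went from 14 to 7 and 6. From FL GFP+ over BM GFP+ it went from 8 to 5 with a pseudocount of 1, and in the other direction from 4 to 0, 0 and 2 with an FPKM of at least 1, a pseudocount of 1 and a pseudocount of 0.1. From FL GFP- over BM GFP- it went from 11 to 6 and 4, and in the other direction from 5 to 0, 0 and 2. Detection at an FPKM of at least 1 left 13 of 21 genes in FL GFP-, 6 of 11 in BM GFP+ and 10 of 20 in BM GFP-. These settings remove genes with low values by construction.

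Division by the HSC marker sum, chosen after seeing the data, turned the BM log2 ratio of the Hox sum from -1.13 to 1.21 and the FL GFP+ over BM GFP+ ratio from 2.03 to -1.45. It turned the FL GFP- over BM GFP- ratio from 0.73 to -0.18. Under it 8 genes were past 2-fold towards BM GFP+ and 12 of the 14 towards BM GFP- remained, without *Hoxa9* and *Hoxa10*. FL GFP+ over BM GFP+ kept 3, and 8 were higher in BM GFP+. It turned the FL ratio from 0.17 to -0.061. The direction of the Hox sum thus depends on this scaling in all 4 comparisons. It shifted the log2 ratio of every gene in the BM by 2.34. It shifted the FL ratios by -0.23, and the FL counts past 2-fold did not change. A gene listed at 0 in the lower sample keeps its call under any scaling. This fixed 10 of the 14 calls towards BM GFP- and 13 of the 14 towards FL GFP- in advance. Rescaling to equal FPKM totals moved the FL GFP+ over BM GFP+ ratio to 2.66 and shifted log2 ratios by -0.46 to 0.63 over the 4 comparisons. Equal totals and equal upper quartiles turned the FL ratio of the sum to -0.087 and -0.056, and the FL GFP- minus BM GFP- difference of *Hoxa5* from -0.027 to 0.37 and 0.13. Leaving out *Hoxa7*, *Hoxa9* and *Hoxa10* turned the FL ratio from 0.17 to -0.70.

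No limma setting called a Hox gene or turned one of the 9 differences given. A pseudocount of 0.1 moved the GFP difference of *Hoxa6* from -1.98 to -4.89. Adjusted p over 7 settings of the GFP effect ran from 0.62 to 0.9998 over *Hoxa2*, *Hoxa5*, *Hoxa6*, *Hoxb5* and *Hoxb6*. Over 8 settings of the tissue effect it ran from 0.133 to 0.447 for *Hoxa10*, 0.0714 to 0.631 for *Hoxa3*, 0.236 to 0.505 for *Hoxa9* and 0.253 to 0.524 for *Hoxa7*.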

Other observations

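Homeobox genes outside the clusters were described by a list of 7. *Hhex*, needed for the liver and for lymphoid progenitors, stood at 228.9 (GFP+) and 195.1 FPKM (GFP-) in the FL, and at 148.8 (GFP+) and 88.3 FPKM (GFP-) in the BM. It was above every Hox gene in all 4 samples and was not lowest in BM GFP+. *Hlx*, which acts in liver and gut growth, was listed at 0 in both FL samples and had 3.82 (GFP+) and 8.30 FPKM (GFP-) in the BM. The ParaHox genes *Gsx1*, *Gsx2* and *Pdx1* and the motor neuron gene *Mnx1* were listed at 0 in all 4 samples.

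Of the genes beyond the cluster ends, *Skap1*, beside the Hoxb cluster, was listed at 0 in both FL samples and had 5.76 (GFP+) and 8.68 FPKM (GFP-) in the BM. It is a T cell adaptor gene. The T cell genes also had higher sums in both BM samples. Unlike *Skap1*, they summed higher in BM GFP+ (132.7 FPKM) than in BM GFP- (31.5 FPKM). Their part in the *Skap1* values was not tested. *Snx10*, near the Hoxa cluster, had 72.4 (GFP+) and 22.9 FPKM (GFP-) in the FL, and 31.2 (GFP+) and 46.7 FPKM (GFP-) in the BM.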
